A study of Mus musculus with 4 samples.

Results

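Notch receptors, their ligands, the DNA-binding factor of the pathway and its Hes and Hey genes were followed in mouse embryonic stem cells before and after 48 hours of 4-hydroxytamoxifen, the drug given to delete Cbx2. The set was chosen by gene symbol and holds 10 genes of the 22266 listed: the receptors Notch1, Notch2 and Notch3, the ligands Dll1, Dll3 and Jag1, the factor Rbpj, and the basic helix-loop-helix genes Hes1, Hes6 and Hey1. All 10 symbols were found, each in 1 row. Poly(A) RNA was sequenced in 4 libraries of 2 groups. The EtOH group (n = 2, day 0, genotype label Wildtype) received ethanol, and the OHT group (n = 2, day 2, genotype label Knockout) received 1.0 µM 4-hydroxytamoxifen. Both groups are the female line PGK12.1, carry floxed Cbx2 alleles with a HaloTag, and grew on gelatin in serum with leukemia inhibitory factor. The labels name neither the recombinase nor a clone, and no library joins the drug with Cbx2 intact, so drug, days in culture and deletion cannot be told apart. They also do not say that replicates were separate cultures, so p-values measure the spread between these libraries, which may be technical.

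Notch receptors are single-pass membrane proteins that bind ligands of the Delta and Jagged families on a neighbouring cell. Binding lets ADAM proteases and then gamma-secretase cut the receptor, and the freed intracellular domain joins RBPJ and a Mastermind coactivator on DNA to switch on genes such as Hes1 and Hey1, which encode repressors. In embryonic stem cells the pathway is known for promoting entry into the neural lineage, and it is not needed for self-renewal. CBX2 is a chromodomain subunit of Polycomb repressive complex 1, which keeps many developmental genes silent.

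Values are TPM, each gene's share of all transcripts after correction for length, so levels can be compared between genes but the sequencing depth behind them is unknown. Cbx2, the targeted gene, read 2.29 and 2.71 TPM under EtOH and 0.749 and 1.14 TPM under OHT, the direction of the labels. The 8 embryonic stem cell markers examined all reached a mean of 1 TPM, and their summed level was 8714 to 8787 TPM under EtOH and 10344 to 11634 TPM under OHT. Dppa5a alone made up 53.4% of the EtOH sum and 75.2% of the rise between the group means. Of the 8 markers, 6 were higher in both OHT libraries than in both EtOH libraries and none was lower. Over all tested genes these shares were 23.1% and 19.4%. The ratio of OHT to EtOH means was lowest for Sox2 (0.981) and Zfp42 (1.05), and highest for Dppa5a (1.36) and Tfcp2l1 (1.49). The 2 OHT libraries differed from each other by transcript length. Among 2365 tested genes with transcripts over 5000 bases, OHT replicate 1 had a median difference from the EtOH mean of -0.18 and OHT replicate 2 of 0.35 on the log2(TPM + 1) scale. Among 3298 genes under 2000 bases it was 0.01 and -0.03. Results on long transcripts are therefore given for each OHT library.

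No Notch pathway gene of the set passed the test between OHT and EtOH. The test was limma on log2(TPM + 1) over genes whose mean reached 1 TPM. Its threshold was a Benjamini-Hochberg adjusted p under 0.05 over 12029 genes, which 0.0416% of all tested genes passed. Cbx2, the targeted gene, did not pass either (log2 fold change -0.85, SE 0.19, limma adjusted p = 0.265). Dll1 fell under that level filter, so 9 of the 10 were tested. Dll3 and Hey1 reached the filter only through their EtOH libraries. At an unadjusted p under 0.05 stood 2 of the 9, Hes1 on the higher side and Hey1 on the lower, where the background over all tested genes was 10.5%, with 6.02% higher and 4.46% lower. For 4 of the 9 the groups had no overlap between libraries (Notch3 and Hes1 higher in OHT, Dll3 and Hey1 lower), against a background of 42.4% of all tested genes, 23.1% higher and 19.4% lower. The median log2 fold change of the 9 was 0.03, beside 0.02 for all genes tested. In bulk RNA, a smaller number of cells that express a gene and less RNA per cell cannot be told apart.

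The pathway was unevenly expressed. Rbpj stood highest, at 134 to 197 TPM over the 4 libraries, followed by Hes1 at 34.4 to 47.6 TPM and Hes6 at 12.6 to 14.4 TPM. Neither Rbpj nor Hes1 overlapped in level with the next gene in order. Hes6, Notch1, Jag1, Notch3 and Notch2 formed a middle group in which each gene's range over the libraries overlapped that of the next. Hey1, Dll3 and Dll1 were lowest, between 0.547 and 2.09 TPM, again with overlapping neighbours. Summed by role, the 3 receptors reached 16.6 and 19.4 TPM under EtOH and 19.1 and 32.1 TPM under OHT, and the 3 ligands 10.4 and 10.8 TPM under EtOH and 7.93 and 10.0 TPM under OHT.

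**Figure D1:**
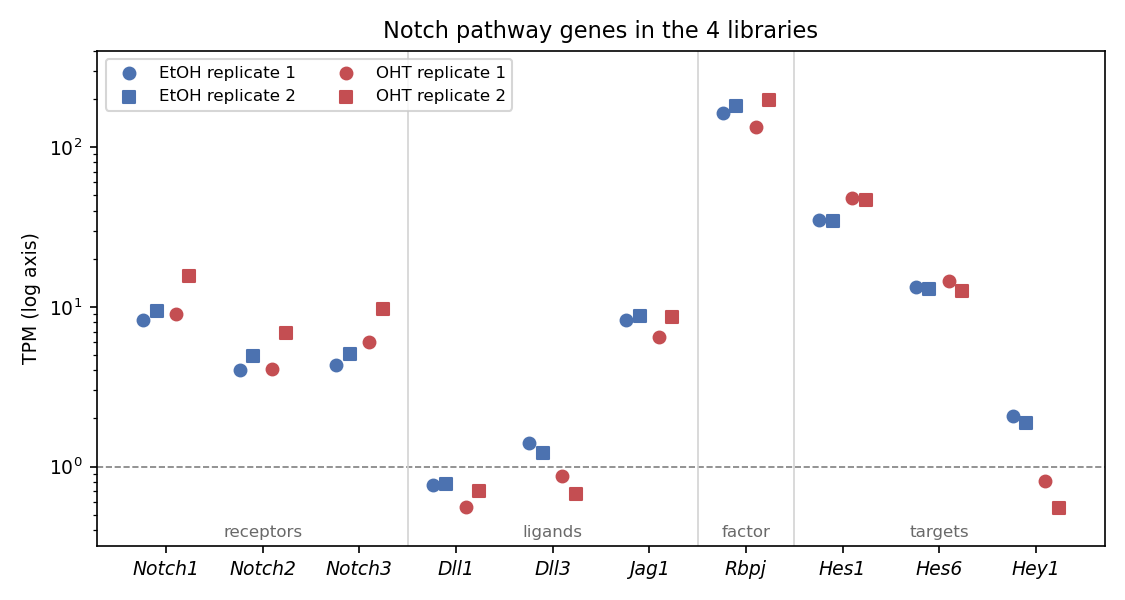
TPM (log axis) of the 10 Notch pathway genes in each library, with EtOH in blue and OHT in red, circles for replicate 1 and squares for replicate 2. The dashed line marks 1 TPM. Rbpj lies above 100 TPM in every library, Hes1 is higher in both OHT libraries, Hey1 is lower in both, and the receptors are highest in OHT replicate 2.

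For each of the 3 receptors OHT replicate 2 read highest and EtOH replicate 1 lowest. Notch1, a receptor of early embryos and of T cell development (ENSMUSG00000026923.16, GRCm38 chromosome 2, 26457903 to 26516663, minus strand), read 8.24 and 9.42 TPM under EtOH and 9.02 and 15.5 TPM under OHT. OHT replicate 1 lay between the EtOH libraries, so the groups overlapped. The log2 fold change was 0.39 (SE 0.27, limma adjusted p = 0.680), made up of 0.03 in OHT replicate 1 and 0.75 in OHT replicate 2 when set against the mean of the EtOH libraries.

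Notch2 (ENSMUSG00000027878.12, chromosome 3, 98013527 to 98150361, plus strand), a widely expressed receptor, read 4.00 and 4.89 TPM under EtOH and 4.10 and 6.81 TPM under OHT. The same library stood alone, and the log2 fold change was 0.22 (SE 0.26, limma adjusted p = 0.824), with -0.09 in OHT replicate 1 and 0.53 in OHT replicate 2. Notch3, known for its role in vascular smooth muscle (ENSMUSG00000038146.9, chromosome 17, 32120820 to 32166852, minus strand), read 4.33 and 5.07 TPM under EtOH and 6.01 and 9.73 TPM under OHT. It was the only receptor of the 3 with both OHT libraries above both EtOH libraries. Its log2 fold change was 0.61 (SE 0.25, limma adjusted p = 0.480), a size that 2.54% of all tested genes reached on the higher side. OHT replicate 1 stood at 0.30 and OHT replicate 2 at 0.92.

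Annotated transcripts with no value used here overlap exons of the receptors (antisense for Notch1 and Notch3, same strand for Notch2) and, antisense, of Dll1, and how reads were shared with them is unknown. Receptor transcripts are long, at 9488 bases for Notch1, 10500 for Notch2 and 8016 for Notch3. With each library's trend with transcript length and GC content removed, the log2 fold change was 0.22 (SE 0.19) for Notch1, 0.07 (SE 0.18) for Notch2 and 0.41 (SE 0.18) for Notch3. None of the 3 passed in that fit, where 0.574% of all tested genes did. Without OHT replicate 1, the log2 fold change was 0.75 for Notch1 and 0.92 for Notch3. Without OHT replicate 2 it was 0.03 and 0.30. Endothelial cells carry several Notch receptors, and the summed level of 6 endothelial markers was 29.9 and 32.7 TPM under EtOH and 38.2 and 51.2 TPM under OHT. Of these markers 3 had a mean of at least 1 TPM, and all 3 were higher in both OHT libraries, beside 23.1% of all tested genes. Their ratios of OHT to EtOH means were 1.41 for Pecam1, 1.53 for Tek and 1.40 for Kdr. Most of the sum came from Pecam1, which stem cells also express. Emcn was listed at 0 in all 4 libraries and Tie1 reached at most 0.0601 TPM. Fibroblast and feeder cell markers summed to 6.99 and 6.02 TPM under EtOH and 8.46 and 12.2 TPM under OHT over 7 genes, highest in OHT replicate 2. Most of that sum came from Thy1, the only one of the 7 with a mean of at least 1 TPM, while Postn was listed at 0 in all 4 libraries and Col1a1 reached at most 0.777 TPM. Of the 7, 3 were higher in both OHT libraries, Thy1 among them (ratio of means 1.57), and 1 was lower. Over all tested genes these shares were 23.1% and 19.4%, though most of the 7 were under the level filter. The part of endothelial or feeder cells in the receptor values was not tested.

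The start regions of the 3 receptor genes are shown because these genes had their highest and lowest level in the same libraries. That order is not particular to them. Of tested genes with transcripts over 5000 bases, 95.3% read higher in OHT replicate 2 than in OHT replicate 1. The difference between the EtOH libraries (replicate 2 minus replicate 1) also rose with transcript length (Spearman correlation 0.38). Promoter windows of RefSeq (GRCm38.p6, 250 bases before to 50 after a transcript start) were found for 8 of the 10 genes, in 11 windows. Windows for Hes1 and Hey1 were not used here. The Notch1 window lies inside the gene span given above, away from its outermost start. Which start these cells use was not tested. The 3 receptor windows held 5, 7 and 4 matches of GGGCGG (the GC box, both strands), with no base shared with the other motifs searched. Over all 32851 windows, 35.7% held at least 1 match and 10.71% held 3 or more. Capitals mark the GC boxes. The windows are chr2:26503773-26504072 (minus strand) for Notch1, chr3:98013288-98013587 (plus strand) for Notch2 and chr17:32166841-32167140 (minus strand) for Notch3.
Notch1: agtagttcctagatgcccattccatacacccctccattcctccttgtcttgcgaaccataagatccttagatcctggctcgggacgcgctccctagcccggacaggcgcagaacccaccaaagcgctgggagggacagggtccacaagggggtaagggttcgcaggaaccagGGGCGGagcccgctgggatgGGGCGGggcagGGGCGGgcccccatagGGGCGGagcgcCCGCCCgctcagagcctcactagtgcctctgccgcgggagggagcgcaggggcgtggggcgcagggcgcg
Notch2: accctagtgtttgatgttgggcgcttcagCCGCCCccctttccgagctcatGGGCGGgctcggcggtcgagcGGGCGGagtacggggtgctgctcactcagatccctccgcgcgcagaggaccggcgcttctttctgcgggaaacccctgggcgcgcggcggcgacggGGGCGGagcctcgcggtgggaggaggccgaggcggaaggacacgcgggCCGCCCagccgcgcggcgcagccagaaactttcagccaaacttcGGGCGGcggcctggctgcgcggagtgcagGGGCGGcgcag
Notch3: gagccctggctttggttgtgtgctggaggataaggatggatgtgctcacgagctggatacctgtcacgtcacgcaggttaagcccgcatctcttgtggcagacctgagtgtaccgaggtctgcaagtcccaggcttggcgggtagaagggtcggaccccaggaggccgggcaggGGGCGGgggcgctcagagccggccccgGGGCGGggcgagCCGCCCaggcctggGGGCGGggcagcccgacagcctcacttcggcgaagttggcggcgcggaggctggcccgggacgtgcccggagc

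These windows were rich in G and C, at 68.3%, 73.0% and 70.0%, where the median over all windows was 52.7%. Of the other 8 windows, 3 held a GC box, with 2 matches in the second window of Hes6 and 1 each in those of Dll3 and, downstream, Rbpj. The N-box, CACNAG on both strands, which Hes factors bind, matched 3 times in the Notch1 window, with 1 pair of matches overlapping, once in Notch2 and 2 times in Notch3. Outside the receptors it matched 2 times in the second Hes6 window and once in the second Dll1 window. It matched in 42.5% of all windows. These matches describe the letters only.

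The ligands were low or close to their EtOH level. Jag1, the Jagged ligand of the set (ENSMUSG00000027276.8, chromosome 2, 137081456 to 137116644, minus strand), was the most abundant, with 8.21 and 8.80 TPM under EtOH and 6.49 and 8.67 TPM under OHT. One OHT library lay below both EtOH libraries and the other between them. The log2 fold change was -0.16 (SE 0.20, limma adjusted p = 0.839).

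Dll3, a divergent Delta protein that stays largely inside the cell and does not activate receptors on neighbouring cells (ENSMUSG00000003436.12, chromosome 7, 28293553 to 28302238, minus strand), read 1.40 and 1.21 TPM under EtOH and 0.878 and 0.677 TPM under OHT. Each OHT library lay under each EtOH library. Its log2 fold change was -0.37 (SE 0.17, limma adjusted p = 0.507), and at this level that value depends on the pseudocount, with -0.68 at 0.1 and -0.13 at 5. The ratio of the group means was 0.597. Dll3 reached the level filter only through its EtOH libraries, so entry to the test favoured a lower value. Dll1, a Delta ligand that activates receptors (ENSMUSG00000014773.14, chromosome 17, 15367354 to 15376872, minus strand), read 0.763 and 0.779 TPM under EtOH and 0.561 and 0.704 TPM under OHT. Its OHT libraries also lay below its EtOH libraries, but it was under the level filter and had no test.

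Rbpj, which encodes the DNA-binding protein that receives the Notch intracellular domain and otherwise recruits corepressors (ENSMUSG00000039191.13, chromosome 5, 53466152 to 53657362, plus strand), had the highest level of the set. It read 164 and 181 TPM under EtOH and 134 and 197 TPM under OHT. The OHT libraries lay on either side of the EtOH libraries. The log2 fold change was -0.08 (SE 0.19, limma adjusted p = 0.916), with -0.36 in OHT replicate 1 and 0.19 in OHT replicate 2. Without OHT replicate 2 the log2 fold change was -0.36, and without OHT replicate 1 it was 0.19, each resting on a single OHT library. A processed copy, Rbpj-ps3, is 99.7% identical over 26.3% of the Rbpj transcript. It has no value used here, so how reads were shared between them is unknown.

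The core of the site that RBPJ binds, TGGGAA on either strand, was searched in the same windows. Among the 11 windows it matched only in the pair belonging to Rbpj, 2 times in the upstream window and once in the downstream one, which overlaps the first. It matched in 25.6% of all windows. Both Rbpj windows lie inside the gene span given above, away from its outermost start. The upstream window, chr5:53590096-53590395 (plus strand), is shown because it carries the factor's own core letters, marked in capitals.
Rbpj: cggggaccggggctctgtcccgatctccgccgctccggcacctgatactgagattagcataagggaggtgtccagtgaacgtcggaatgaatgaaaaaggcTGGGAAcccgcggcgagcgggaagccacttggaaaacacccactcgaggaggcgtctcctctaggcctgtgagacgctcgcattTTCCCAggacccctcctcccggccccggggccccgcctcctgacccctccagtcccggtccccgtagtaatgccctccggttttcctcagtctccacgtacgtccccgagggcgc

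Hes1 and Hey1, both known Notch targets, stood on opposite sides of their EtOH level. Hes1, a repressor that holds back neural differentiation (ENSMUSG00000022528.9, chromosome 16, 30064384 to 30067796, plus strand), read 34.9 and 34.4 TPM under EtOH and 47.6 and 46.4 TPM under OHT. The replicates of each group were close (SD 0.348 TPM under EtOH and 0.890 TPM under OHT, n = 2 each), and the groups did not overlap. The ratio of the means was 1.36 and the log2 fold change 0.43 (SE 0.12, unadjusted p = 0.0104, limma adjusted p = 0.318). A difference of that size or more on the higher side was found for 6.66% of all tested genes.

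Hey1, a Hes-related repressor (ENSMUSG00000040289.9, chromosome 3, 8663359 to 8667256, minus strand), read 2.09 and 1.86 TPM under EtOH and 0.814 and 0.547 TPM under OHT. Each OHT library lay under each EtOH library by more than the spread within either group (SD 0.160 TPM under EtOH and 0.189 TPM under OHT, n = 2 each). The ratio of the means was 0.345 and the log2 fold change -0.83 (SE 0.17, unadjusted p = 0.00310, limma adjusted p = 0.252), a size that 0.657% of all tested genes reached on the lower side. Hey1 reached the level filter only through its EtOH libraries, so entry to the test favoured a lower value. With pseudocounts of 0.1 and 5 in place of 1 the log2 fold change was -1.43 and -0.30.

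With the replicate number as a block, Hey1 passed (limma adjusted p = 0.00324, all 4 libraries). Many more genes passed in that fit than without the block, as counted in the section on processing. At an unadjusted p under 0.05 the shares were 13.7% of all tested genes with the block and 10.5% without it. Fits with each library left out in turn were also made. Such a fit leaves a single library in its group, which is taken to vary as much as the other pair. The log2 fold change then stayed between 0.41 and 0.45 for Hes1 and between -0.94 and -0.71 for Hey1. Their transcripts are of 1468 and 2423 bases. After removal of the length and GC trend the log2 fold changes were 0.47 (SE 0.13) and -0.83 (SE 0.17), and neither passed (limma adjusted p = 0.196 and 0.100).

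Hes6 encodes a relative of Hes1 that antagonises it and favours neuronal differentiation (ENSMUSG00000067071.9, chromosome 1, 91411483 to 91414038, minus strand). It read 13.3 and 13.0 TPM under EtOH and 14.4 and 12.6 TPM under OHT. The OHT libraries lay on either side of the EtOH libraries, and the log2 fold change was 0.03 (SE 0.16, limma adjusted p = 0.963). Its sign turned under median of ratios scaling, quantile normalization (-0.02) and removal of the length and GC trend. Neural progenitor markers, given because the pathway acts in that lineage, summed to 217 and 220 TPM under EtOH and 181 and 191 TPM under OHT over 8 genes. Sox1 was higher in both OHT libraries (ratio of means 2.10), and Pax6 (0.454) and Tubb3 (0.837) were lower, beside the background of 23.1% and 19.4% of tested genes. Most of the sum came from Tubb3, and Neurog2 was listed at 0 in all 4 libraries. The part of neural cells in the Hes and Hey values was not tested.

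**Figure D2:**
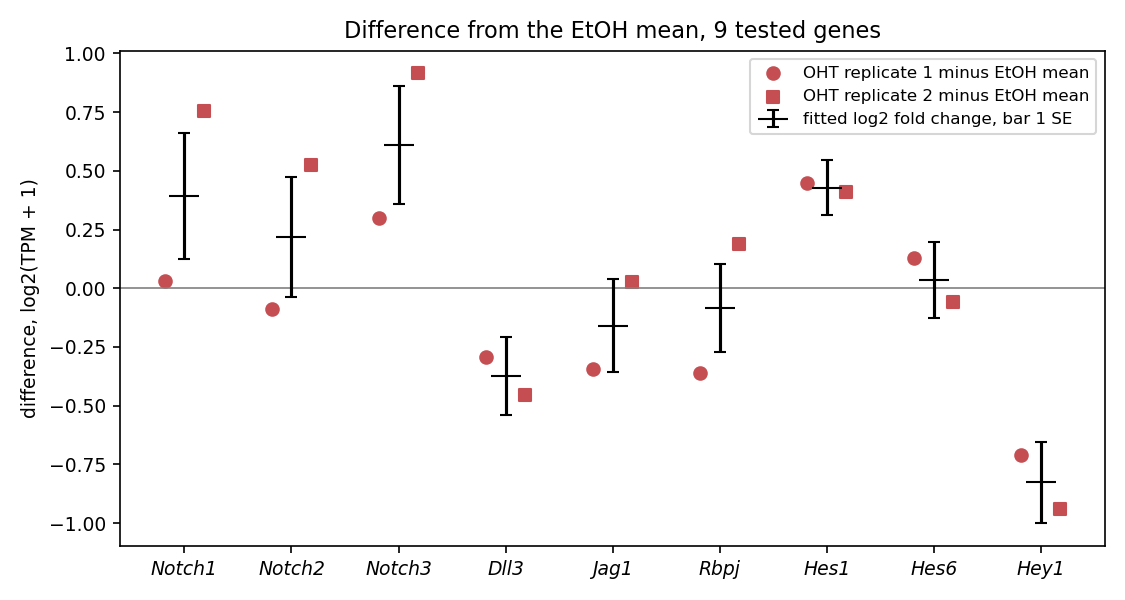
Difference from the EtOH mean on the log2(TPM + 1) scale for the 9 tested genes. Circles are OHT replicate 1, squares OHT replicate 2, and black bars the fitted log2 fold change with 1 SE. The 2 OHT libraries lie close together for Hes1 (0.45 and 0.41) and far apart for Notch1 (0.03 and 0.75).

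The spread between the OHT libraries followed transcript length within the set. For the 5 genes with transcripts over 5000 bases, OHT replicate 2 exceeded OHT replicate 1 by 0.37 (Jag1) to 0.72 (Notch1) on the log2(TPM + 1) scale. For the 4 shorter genes tested, OHT replicate 2 was lower, by -0.23 (Hey1) to -0.04 (Hes1). The SD of this difference over all tested genes was 0.35, and that between the EtOH libraries was 0.18. The part of this trend in the receptor, Jag1 and Rbpj values was not tested beyond the fit with the trend removed, in which the OHT libraries of Notch1 stood at -0.00 and 0.44 and those of Rbpj at -0.24 and 0.10.

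**Figure D3:**
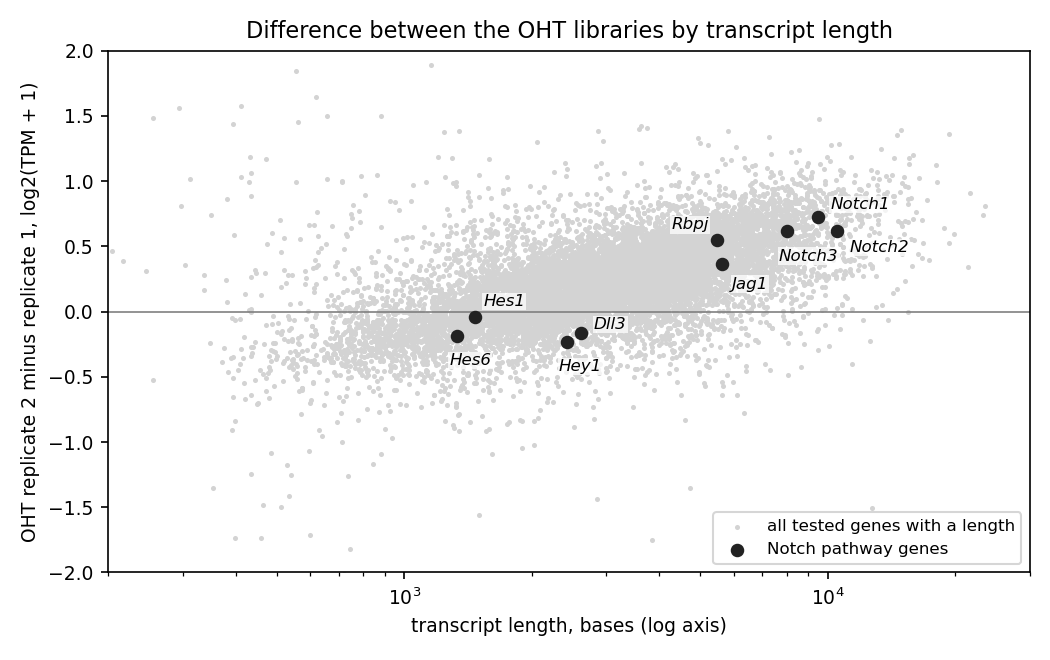
Difference between the OHT libraries (replicate 2 minus replicate 1, log2(TPM + 1)) against transcript length in bases (log axis) for 12016 tested genes in grey, with 22 outside the range drawn, and the 9 tested Notch pathway genes in black. Of transcripts over 5000 bases, 95.3% lie above 0, the receptors among them, and Hes1, Hes6, Hey1 and Dll3 lie below it.

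The rest of the pathway was read from a list of 62 genes in 6 roles, of which 46 were tested. None passed. An unadjusted p under 0.05 was found for 3, all higher in OHT, where 6.02% of all tested genes stood on that side. The groups had no overlap for 17 higher and 3 lower genes, beside the background of 23.1% and 19.4%. Dtx4, among the 17, reached the level filter only through its OHT libraries. The median log2 fold change of the 46 was 0.17, beside 0.02 over all genes. Removing the length and GC trend gave 0.10. Before that removal the median differed by library, at -0.00 in OHT replicate 1 and 0.35 in OHT replicate 2. All tested genes had medians of -0.09 and 0.14.

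Of the other receptors and ligands, 3 of 6 were tested. Notch4, a receptor best known from endothelium, read 12.0 and 11.7 TPM under EtOH and 12.4 and 16.8 TPM under OHT, above Notch1 in each library. Its log2 fold change was 0.27 (SE 0.19, limma adjusted p = 0.695). Dlk1, a noncanonical ligand from an imprinted locus, read 6.59 and 6.51 TPM under EtOH and 8.90 and 6.82 TPM under OHT, for which the log2 fold change was 0.22 (SE 0.19, limma adjusted p = 0.759). Both genes had each OHT library above the EtOH libraries, by amounts that differed between replicates.

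Proteases and sugar-adding enzymes act on the receptor before and after ligand binding. Of 8 proteases tested, 4 were higher in both OHT libraries and none lower, and of 7 glycosyltransferases 1 was higher and none lower, where 23.1% of all tested genes were higher and 19.4% lower. The smallest p-values belonged to Furin, the convertase that first cuts the receptor (9.83 and 10.4 TPM under EtOH, 11.7 and 14.9 TPM under OHT, limma adjusted p = 0.569), and to Psen2, a catalytic subunit of gamma-secretase (5.48 and 4.97 TPM, then 6.47 and 6.32 TPM, limma adjusted p = 0.684). The glycosyltransferase was Mfng, a Fringe enzyme that tunes which ligands a receptor answers. It read 7.09 and 6.56 TPM under EtOH and 8.98 and 10.2 TPM under OHT, and its log2 fold change was 0.43 (SE 0.17, unadjusted p = 0.0473, limma adjusted p = 0.470). Poglut1, which adds glucose to the receptor, read 40.5 and 40.6 TPM under EtOH and 40.5 and 51.6 TPM under OHT (limma adjusted p = 0.769).

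Among ubiquitin ligases and trafficking proteins, 8 of 13 tested were higher in both OHT libraries and none lower, beside the same 23.1% and 19.4%. Their median log2 fold change was 0.20, and 0.17 once the trend was taken out, where all tested genes had 0.02 in both. Dtx4, among the 8, averaged 0.979 TPM under EtOH and 1.44 TPM under OHT. It reached the level filter only through its OHT libraries, so its entry favoured a higher value. Neurl1a, a ligase of the Neuralized family that acts on ligands, read 5.46 and 4.66 TPM under EtOH and 7.05 and 8.29 TPM under OHT, and its log2 fold change was 0.52 (SE 0.19, unadjusted p = 0.0331, limma adjusted p = 0.430). Numbl, a relative of the Notch inhibitor Numb, read 12.7 and 10.6 TPM under EtOH and 13.7 and 17.7 TPM under OHT (limma adjusted p = 0.549). Of 14 coactivators and corepressors, 1 was higher in both OHT libraries and 3 lower, against 23.1% and 19.4% of all tested genes. Ctbp1, a corepressor, read 70.8 and 71.8 TPM under EtOH and 73.8 and 90.9 TPM under OHT (limma adjusted p = 0.677), and the deacetylase gene Hdac1 read 190.3 and 190.6 TPM under EtOH and 160 and 183 TPM under OHT (limma adjusted p = 0.680).

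Of 7 further target genes only Nrarp was expressed enough to test. NRARP is induced by Notch and limits it in turn. Nrarp read 1.51 and 1.41 TPM under EtOH and 2.24 and 2.36 TPM under OHT. The groups did not overlap and the replicates were close (SD 0.0718 TPM under EtOH and 0.0815 TPM under OHT, n = 2 each). The log2 fold change was 0.42 (SE 0.16, unadjusted p = 0.0413, limma adjusted p = 0.454), higher as for Hes1 and opposite in sign to Hey1, without a test between the genes. At this low level it was 0.62 with a pseudocount of 0.1 and 0.18 with 5, and the ratio of the means was 1.58.

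**Figure D4:**
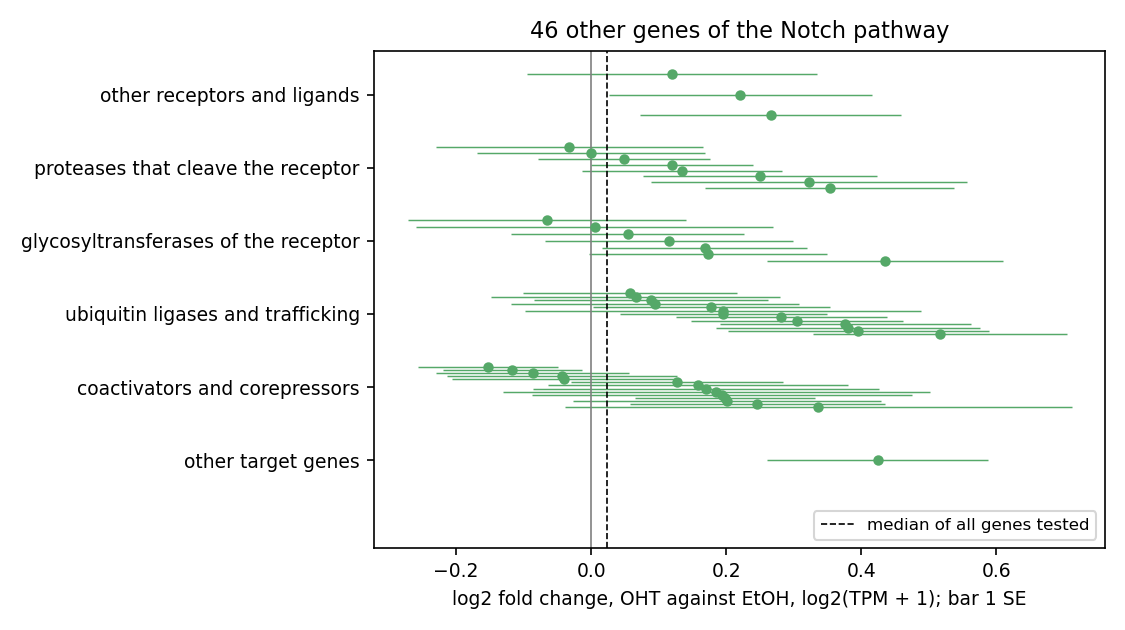
Log2 fold change (OHT against EtOH, log2(TPM + 1) scale) of the 46 other tested genes of the pathway by role, each point a gene with a bar of 1 SE. The dashed line is the median of all tested genes, 0.02. Most points lie to its right, none passed the test, and Nrarp stands alone among the further targets at 0.42.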

How the data were processed

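Poly(A) RNA of 4 libraries (2 EtOH, 2 OHT, all labelled batch 2) was read from the table of TPM that the authors deposited. Per the submitters' processing notes, Trim Galore, Salmon and the build GRCm38 (mm10) were used; not given in the sources used here are versions, bias settings and the annotation release. Another 2 columns match no sample and were not used. TPM keeps no depth, so no counting interval was computed. Strandedness of the libraries is not stated.

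Values were taken as log2(TPM + 1), so a fold change understates the change of low genes. Genes whose mean reached 1 TPM (12029) were tested with limma 3.58.1 in R 4.3.3 (trend, two-sided, Benjamini-Hochberg, threshold 0.05), after the fit was tested on simulated data. SE is limma's moderated one. An exact permutation test of 2 against 2 cannot go below 0.333 and was not run. Genes, lists and motifs were chosen with earlier results of these data known. Named are Cbx2, all 10 members and, of each role list, the 2 genes with the smallest p. Lengths, GC content and positions come from GENCODE mouse release 21 (22213 identifiers matched without version), and copies were sought with blastn 2.17.0 (95% identity over 50% of the shorter transcript). Alternatives covered pseudocounts, filters, scaling, the length and GC trend, limma without a trend, a replicate block and each library left out.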

Additional observations from a re-analysis of the deposited data

How the results depend on the processing

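No tested Notch pathway gene, of the 9 or the 46 others, passed under any pseudocount, filter, scaling or trend setting tried with all 4 libraries and no block. At an unadjusted p under 0.05 by limma stood 2 to 4 of the genes where 9 were tested, 3 of 10 without a filter and 1 of 6 at a minimum mean of 5 TPM, where 9.44% to 15.1% of all tested genes did. Over all genes, 5 passed; 0 passed without a filter on low values (1838 at an unadjusted p under 0.05), 3 under median of ratios scaling, 3 under quantile normalization, 3 without limma's trend and 69 after removal of the length and GC trend. With the replicate block 474 passed, among them 1 Notch pathway gene, Hey1 (adjusted p = 0.00324). The labels do not say that the numbers mark a shared day or culture, and deviations of same-numbered libraries correlated at 0.29 across genes. Leaving out each library in turn gave 34 to 2957 genes, 0 to 4 of the Notch pathway genes and 0 to 20 of the others. The 4 without OHT replicate 1 were Notch1, Notch3 and Hes1, higher, and Hey1, lower; the 3 without OHT replicate 2 were Hes1, higher, and Rbpj and Hey1, lower. Hes6, at 0.03, turned to -0.000116 under median of ratios scaling, -0.0183 under quantile normalization and -0.0151 after that removal. With a library left out, ranges that crossed 0 were -0.0600 to 0.13 for Hes6, -0.34 to 0.0249 for Jag1, -0.36 to 0.19 for Rbpj, -0.0887 to 0.53 for Notch2 and -0.00420 to 0.34 for Poglut1. Hes1 (0.39 to 0.47), Hey1 (-1.43 to -0.30), Notch1, Notch3 and Dll3 kept their direction in every setting that tested them. Where a library was left out, its group held a single library, which was taken to vary as much as the other pair. The cause of these shifts was not tested.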

Other observations

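Below the level filter stood 16 of the 62 other pathway genes, with means of 0.0345 to 0.725 TPM and no test. For 4 lower and 4 higher ones the groups had no overlap, named here after their values were seen. Of all 3889 genes in that range of means, 17.1% were lower and 21.4% higher in this way. Lower in both OHT libraries were Maml2, a Mastermind coactivator (0.735 and 0.665 TPM under EtOH, 0.239 and 0.261 TPM under OHT), and Hes3, a Hes gene of neural progenitors (0.398 and 0.447 TPM, then 0.110 and 0.0988 TPM). Dner, a neuronal Notch-binding protein gene, read 0.907 and 1.03 TPM, then 0.583 and 0.383 TPM, and Dlk2 read 0.154 and 0.286 TPM, then 0.0767 and 0.0693 TPM. Higher were Hes2, Hes7, Heyl and Maml3, each under 0.5 TPM in every library. Hes5, a Notch target of the developing nervous system, was listed at 0 in OHT replicate 1 and read 0.307 TPM in OHT replicate 2, beside 0.230 and 0.129 TPM under EtOH.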
